A study of Eriocheir sinensis with 9 samples.

Results

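The isoforms described here are those whose abundance in eyestalks of Eriocheir sinensis, the Chinese mitten crab, was lower at each step of warming, at 27 than at 22 °C and again at 32 than at 27 °C. They number 195 of the 267789 isoforms in the deposited table, or 0.193% of the 101114 that reached 1 FPKM in at least 3 of the 9 libraries. FPKM, the unit of abundance, scales the fragments of a transcript to its length and to the mapped total of the library. The isoforms were selected on their measured FPKM values: an isoform was chosen when its mean log2(FPKM + 1) was lower by 0.6 or more at both steps, every 27 °C value lay below every 22 °C value, and every 32 °C value lay below every 27 °C value. The limit of 200 isoforms set with this rule was not reached. All 9 libraries entered the choice, so the steps of these isoforms are a description, and no test of them in these libraries is independent of it.

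Crabs between molts, labelled wild type and untreated, were acclimated at 25 °C and then assigned to a range of temperatures, with 3 parallel replicates of 16 crabs each. The libraries analysed here are 3 from 22 °C, 3 from 27 °C and 3 from 32 °C, and the temperature was read from the library titles. The title of the series names normal and high temperature but does not tell which of the 3 is the normal one. The labels give neither the length of exposure nor the number of crabs behind a library, so the spread between libraries may be partly technical. The design text of the series speaks of muscle, while the sample labels say eyestalk. The isoforms are known by number alone, and 0 of these identifiers were found in the RefSeq gene table, so the tissue was not checked against marker genes and no function is given for any isoform.

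The eyestalk of a crab bears a compound eye above several optic ganglia and holds the X-organ with the sinus gland, a neuroendocrine centre. Its peptide hormones act on blood sugar, molting, pigment and reproduction. Crabs do not regulate their body temperature, so the tissue takes on the temperature of the water. A transcript's abundance in a whole eyestalk reflects how much of it each cell holds and how many such cells there are. In these bulk libraries fewer cells of a type and less RNA per cell cannot be told apart.

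Summed FPKM ran from 1704917 to 2227273 per library and 78012 to 88113 isoforms per library reached 1 FPKM. The number of reads is unknown. The low values of any 2 libraries differed most often by a factor of at most 1.15. These factors did not agree across pairs, so no difference in depth can be read from them. Replicate 1 at 22 °C had a ratio of 1.0 to replicate 2 at 27 °C and to replicate 2 at 32 °C, while the ratio between the latter libraries was 1.13. Replicate 1 at 32 °C stood apart from its group. Across the isoforms tested, its correlation with each 27 °C library (0.754 to 0.761) exceeded that with replicates 2 and 3 of its own temperature (0.731 and 0.738). Without this library 315 isoforms met the rule, among them 180 of the 195. The median upper step of the 195 was then -1.10 on the log2 scale, against -1.02 with it. Leaving out any library eases the demand for no overlap, and each of the 9 omissions raised the count, to between 220 and 315. A chosen isoform can then be lost only through the size of a step.

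The median stepwise-falling isoform averaged 10.9, 3.92 and 1.01 FPKM at 22, 27 and 32 °C. Its median stood at 10.5, 11.0 and 10.6 FPKM in the 22 °C libraries, at 3.73, 3.39 and 3.98 FPKM in the 27 °C libraries and at 1.23, 0.81 and 1.10 FPKM in the 32 °C libraries. The rule itself sets the order of the temperatures here. In proportion, the highest library median within a temperature was close to the lowest at 22 and 27 °C and further from it at 32 °C. Over all isoforms tested the medians were 2.28, 2.46 and 2.55 FPKM at 22, 27 and 32 °C. The spread among the 195 was wide. Means at 22 °C ran from 1.98 to 8865 FPKM, with quartiles of 5.16 and 22.2 FPKM, and means at 32 °C ran from 0 to 2771 FPKM, with quartiles of 0.35 and 3.28 FPKM.

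**Figure D1:**
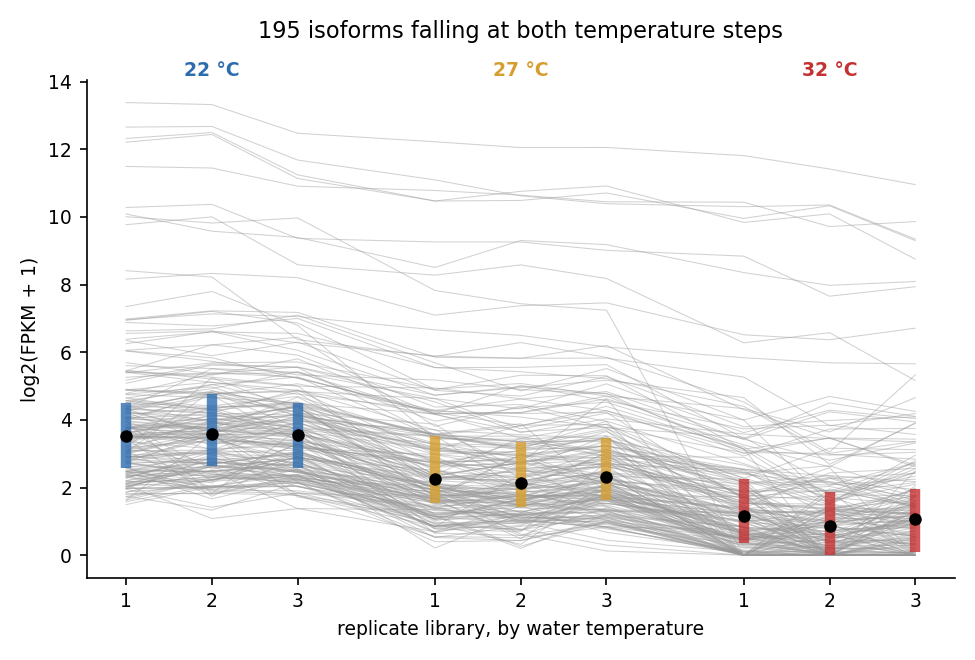
Abundance of the 195 stepwise-falling isoforms as log2(FPKM + 1), on the vertical axis, in the 9 libraries, on the horizontal axis, by temperature. Each grey line joins the values of 1 isoform, black points are medians and coloured bars the quartiles of a library; the medians correspond to 10.5 to 11.0 FPKM at 22 °C, 3.39 to 3.98 FPKM at 27 °C and 0.81 to 1.23 FPKM at 32 °C.

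The rule leaves no chosen isoform at 0 in a 22 or 27 °C library. All 195 had 1 FPKM or more in every 22 °C library. At 27 °C, 161 still had 1 FPKM or more in all 3 libraries, and at 32 °C 67 did. Only 4 reached 1 FPKM in no library at 27 or 32 °C, so these passed the filter on low values through the 22 °C libraries alone. At 32 °C, 123 were above 0 in all 3 libraries, 33 were listed at 0 in 1 library, 20 in 2 libraries and 19 in all 3. Such a 0 does not show that the transcript was missing. The read depth is unknown, and the abundance estimator used can divide reads between similar isoforms. The 19 at 0 throughout 32 °C had medians of 6.19, 1.43 and 0 FPKM at 22, 27 and 32 °C, and apart from the most abundant of them, at 978 FPKM at 22 °C, none averaged above 58.5 FPKM at 22 °C.

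The 2 isoforms with the largest summed fall on the log2(FPKM + 1) scale were isoform_37701 and isoform_89477. Isoform_37701 had 1029, 903 and 1002 FPKM in the 22 °C libraries, 226, 171.8 and 150.4 FPKM in the 27 °C libraries, and a listed 0 in each 32 °C library. It was the 7th most abundant of the 195 at 22 °C. Its mean of 183 ± 39.0 FPKM at 27 °C was 18.7% of the mean of 978 ± 66.1 FPKM at 22 °C (SD, n = 3 each). No fold change is given for its upper step, since it was listed at 0. Isoform_89477 had 65.7, 73.4 and 86.0 FPKM in the 22 °C libraries, 13.0, 20.2 and 12.5 FPKM in the 27 °C libraries and 1.13, 0 and 0 FPKM in the 32 °C libraries. Its means were 75.0 ± 10.2, 15.3 ± 4.29 and 0.377 ± 0.652 FPKM (SD, n = 3 each) at 22, 27 and 32 °C, and the single value above 0 at 32 °C came from replicate 1, the library closest to the 27 °C group.

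The 5 most abundant isoforms of the set were less extreme in proportion and larger in amount. The most abundant had 10670.04, 10238 and 5686 FPKM in the 22 °C libraries, 4776, 4241 and 4251 FPKM in the 27 °C libraries and 3596, 2733 and 1985 FPKM in the 32 °C libraries, with means of 8865 ± 2761, 4423 ± 306 and 2771 ± 806 FPKM (SD, n = 3 each). It kept 49.9% of its 22 °C level at 27 °C and 31.3% at 32 °C. The isoform ranked 2 had 6452, 6539 and 3284 FPKM in the 22 °C libraries, 2187, 1578 and 1341 FPKM in the 27 °C libraries and 1263, 1307 and 649 FPKM in the 32 °C libraries. Its lowest 27 °C value and its highest 32 °C value were nearly the same, so the upper step was clear of overlap by a small margin.

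The isoform ranked 3 had 5116, 5770.5 and 2424 FPKM in the 22 °C libraries, 1419, 1729 and 1929.9 FPKM in the 27 °C libraries and 913, 1089 and 430.4 FPKM in the 32 °C libraries. The isoform ranked 4 had 4736, 5545 and 2249.6 FPKM in the 22 °C libraries, 1418, 1435 and 1672 FPKM in the 27 °C libraries and 992, 1287 and 629.9 FPKM in the 32 °C libraries. In both, replicate 3 was the lowest library at 22 and at 32 °C and the highest at 27 °C. The isoform ranked 5 had 2880.3, 2788 and 1921 FPKM in the 22 °C libraries, 1759.5, 1601 and 1396 FPKM in the 27 °C libraries and 1385, 839 and 931 FPKM in the 32 °C libraries. It kept the most of the whole set at 32 °C, 41.6% of its 22 °C level, and its groups nearly touched at both steps. Those ranked 2, 3 and 4 kept 19.8, 18.3 and 23.2% of their 22 °C levels at 32 °C.

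**Figure D2:**
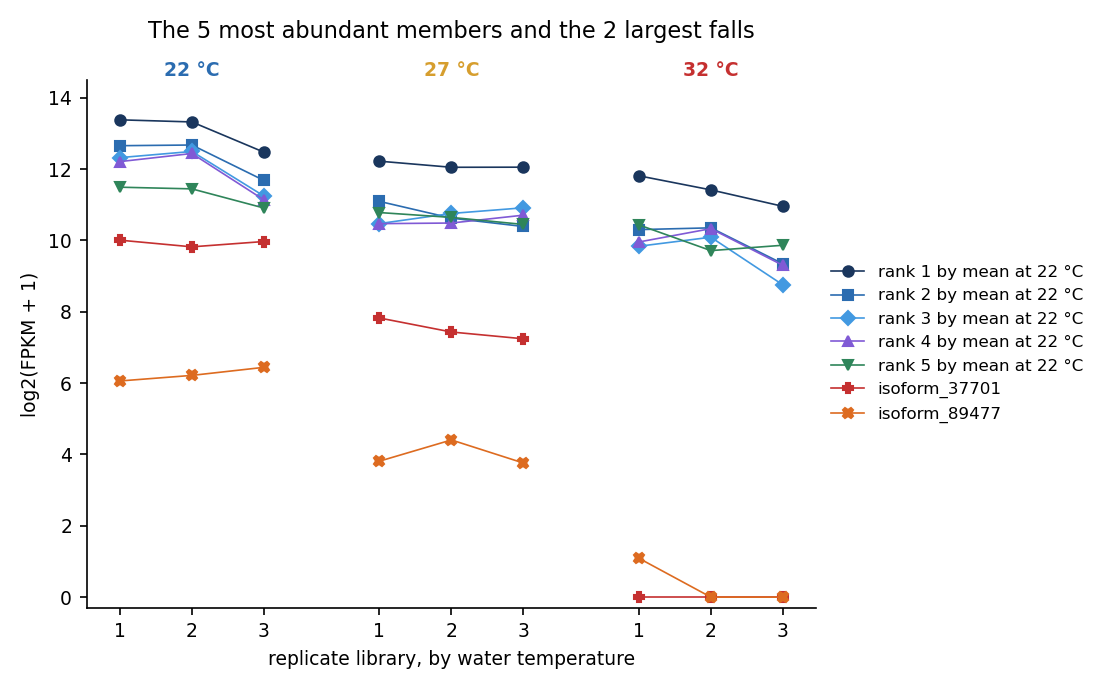
Log2(FPKM + 1), on the vertical axis, of the 5 most abundant stepwise-falling isoforms and of isoform_37701 and isoform_89477 in each library, on the horizontal axis, with lines joining the values of 1 isoform within a temperature. The abundant isoforms kept 18.3 to 41.6% of their 22 °C level at 32 °C, while at 32 °C isoform_37701 was at 0 throughout and isoform_89477 in 2 libraries.

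These few isoforms made up most of the RNA of the set. Together the 195 held shares of summed FPKM of 1.54 ± 0.384, 0.723 ± 0.029 and 0.426 ± 0.097% (SD, 3 libraries each) in the 22, 27 and 32 °C groups. By library the shares were 1.71, 1.81 and 1.10% for 22 °C, 0.752, 0.722 and 0.694% for 27 °C and 0.474, 0.489 and 0.314% for 32 °C. Replicate 3 was the lowest library at each temperature. The 5 most abundant held 70.5 to 78.8% of the set's sum in the 22 °C libraries, 75.8 to 78.6% in the 27 °C libraries and 79.7 to 87.1% in the 32 °C libraries. The other 190 isoforms held 0.358% ± 0.0307, 0.166% ± 0.00781 and 0.0674% ± 0.0068 of summed FPKM at 22, 27 and 32 °C (SD, n = 3 each), and relative to the mean their share varied less between the 22 °C libraries than that of the whole set.

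The low replicate 3 at 22 °C was seen mainly among the abundant isoforms of the set. Among the 17 that averaged at least 100 FPKM at 22 °C, replicate 3 was the lowest of the 22 °C libraries in 11. Its value divided by the mean of replicates 1 and 2 had a median of 0.678 (quartiles 0.506 and 1.0) over these 17, against 0.889 (quartiles 0.707 and 1.05) over the 1567 isoforms tested at this level. The ratio was below 0.75 in 10 of the 17, a limit that lies above the lower quartile of the isoforms tested. At 32 °C the same ratio was below 0.75 in 7 of the 17, 6 of them among these 10. The counts of 11, 10 and 7 were not made over the isoforms tested at this level. The most abundant isoforms did not all share the low replicate 3: isoform_37701 had a ratio of 1.04 at 22 °C. Among the 85 isoforms of 10 to 100 FPKM at 22 °C the median ratio was 1.02, equal to the 1.02 of all tested at that level, and among the 93 below 10 FPKM it was 1.0, against 1.05. Without replicate 3 of 22 °C the median lower step of the 195 was -1.01 on the log2 scale, against -0.99 with it. Of the 195, 183 still met the rule, which they could then fail only through the size of a step.

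The steps were of similar size on the log2(FPKM + 1) scale. The lower step had a median of -0.99, with quartiles of -1.49 and -0.81 and a range of -3.91 to -0.61. The upper step had a median of -1.02, with quartiles of -1.46 and -0.78. In the 176 isoforms above 0 in at least 1 of the 32 °C libraries it ranged from -3.63 to -0.60, with a median of -1.01. In the 19 listed at 0 throughout 32 °C its size is set by the 27 °C level and the pseudocount of 1, and is not a measured fold change. Over all isoforms tested the medians were 0.09 for the lower and 0.01 for the upper step. Both steps were -1 or lower in 58 of the 195, and both lay between -1 and -0.6 in 56. The lower step reached -2 in 15 and the upper step in 24.

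Which step was the larger depended on the scale. In log2(FPKM + 1) the larger fall was the upper step in 95 and the lower step in 100, and in 64 the steps were within 0.2 of each other. In FPKM the loss was larger over the lower step in 183 and over the upper step in 12. As a proportion the order was the other way: the median isoform kept 42.1% of its 22 °C level at 27 °C and 28.4% of its 27 °C level at 32 °C, and 10.8% of its 22 °C level at 32 °C. The rule asks for the same least fall at both steps in log2(FPKM + 1), and the upper step starts from a lower level. Passing it therefore takes a larger loss in proportion and a smaller one in FPKM, so both orders are partly set by the choice. With a pseudocount of 0.1 in place of 1, which moves the log scale towards proportions, the upper step was the larger in 147, and with 0.01 in 157. In the 72 isoforms listed at 0 in at least 1 library at 32 °C, the upper step then depends on the pseudocount, so these counts are partly set by it. After median-of-ratios scaling it was the larger in 71.

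**Figure D3:**
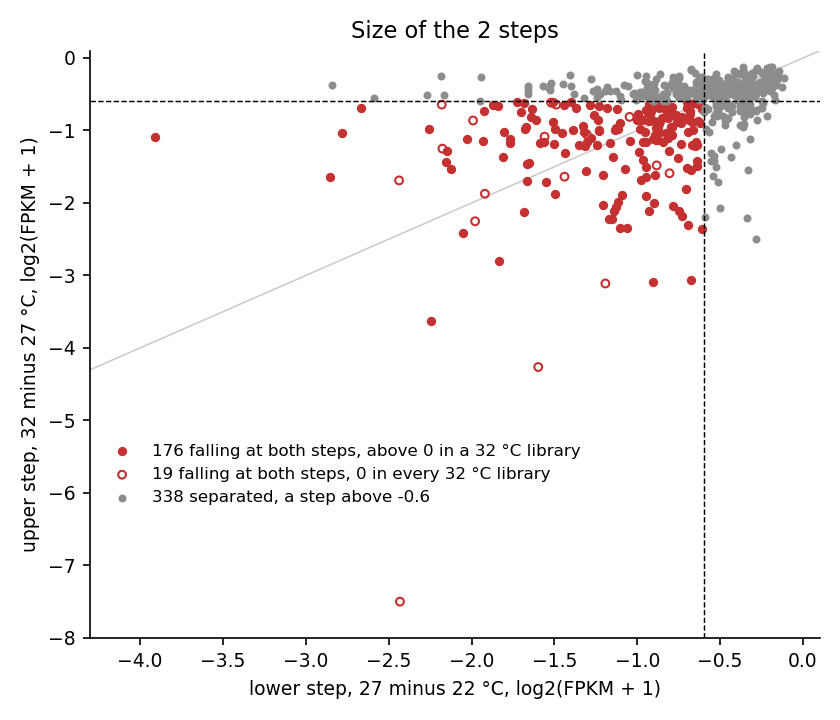
Upper step (32 minus 27 °C, vertical axis) against lower step (27 minus 22 °C, horizontal axis) on the log2(FPKM + 1) scale for the 533 tested isoforms with separated groups in the order 22, 27, 32 °C; dashed lines mark -0.6 and the grey line equal steps. The 195 chosen isoforms (red) lie on both sides of the line of equal steps, 95 with the larger upper and 100 with the larger lower step. Open red circles are the 19 listed at 0 in every 32 °C library, whose height depends on the pseudocount; isoform_37701 is the lowest of them.

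Single isoforms show the range of shapes. The isoform at the middle of the ranking by summed step had 10.4, 9.92 and 8.27 FPKM in the 22 °C libraries, 5.69, 4.84 and 5.89 FPKM in the 27 °C libraries and 1.54, 1.36 and 0.94 FPKM in the 32 °C libraries, with steps of -0.70 and -1.51. The isoform with the most even steps, -0.98 each, had 7.20, 11.1 and 8.66 FPKM in the 22 °C libraries, 3.77, 4.70 and 3.54 FPKM in the 27 °C libraries and 2.84, 0.44 and 1.89 FPKM in the 32 °C libraries. Its 32 °C libraries were spread over a wider range, relative to their mean, than those at 22 or 27 °C. The isoform whose fall lay most in the lower step had 162, 221 and 109.9 FPKM in the 22 °C libraries, 9.93, 9.31 and 9.47 FPKM in the 27 °C libraries and 5.33, 2.63 and 4.39 FPKM in the 32 °C libraries. It kept 5.82% of its 22 °C level at 27 °C, the smallest share of the set, and its steps were -3.91 and -1.08.

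The balance of the steps was compared between isoforms of different abundance. Those averaging at least 100 FPKM at 22 °C had median steps of -1.31 and -1.04, those of 10 to 100 FPKM of -1.09 and -1.29, and those below 10 FPKM of -0.93 and -0.87. Counted by isoform, the upper step was the larger in 9 of 17, 49 of 85 and 37 of 93. In the most abundant class the count and the medians thus pointed in different directions. The pseudocount compresses the changes of the last group most. In proportion, the medians left at 32 °C were 18.3, 12.2 and 9.90% of the 22 °C level in these classes. Isoforms listed at 0 in all 32 °C libraries numbered 1 of 17, 5 of 85 and 13 of 93. The chosen isoforms were 1.08% of the isoforms tested at 100 FPKM or more at 22 °C, 0.712% at 10 to 100 FPKM and 0.106% below 10 FPKM. The last class holds many isoforms too low at 22 °C to be lower by 0.6 at both steps on this scale.

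The limits of the rule ran through a continuous range of values. Of the 533 tested isoforms with separated groups in the order 22, 27, 32 °C, 338 were left out because of the size of a step: 68 for the lower step alone, 114 for the upper step alone and 156 for both. The isoform nearest inside the limit of the lower step had a step of -0.61, with 2.20, 2.43 and 2.24 FPKM in the 27 °C libraries, against 2.62, 4.67 and 5.11 FPKM in those of 22 °C. The nearest outside had -0.60, with 6.63, 7.26 and 8.36 FPKM in the 27 °C libraries, against 13.2, 11.0 and 11.0 FPKM in those of 22 °C. The isoform nearest inside the limit of the upper step had 11.0, 9.92 and 9.18 FPKM in the 32 °C libraries, against 22.2, 11.3 and 15.3 FPKM in those of 27 °C. The nearest outside had 0.92, 1.13 and 0 FPKM in the 32 °C libraries, against 1.73, 1.24 and 1.32 FPKM in those of 27 °C. With limits of 0.4 in place of 0.6 the rule took 340 isoforms, and with limits of 1 it took 58.

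Falling at both steps was one of several ways in which the groups separated. The mirror rule, rising by 0.6 or more at both steps without overlap, was met by 200 isoforms. Their median levels were 1.14, 3.87 and 9.31 FPKM at 22, 27 and 32 °C. At the temperature where each set was high, the medians were 10.9 FPKM for the falling and 9.31 FPKM for the rising isoforms, and the upper quartiles 22.2 and 18.8 FPKM. The sets differed more at the top, where the highest mean was 8865 FPKM among the falling and 287 FPKM among the rising isoforms. With both gaps of at least 0.6, 71 isoforms were ordered 22, 32, 27 °C from high to low, 56 were ordered 27, 32, 22 °C, 34 were ordered 32, 22, 27 °C and 14 were ordered 27, 22, 32 °C. The falling and rising orders were thus the most frequent, at 0.193 and 0.198% of the isoforms tested. Without a minimum gap, 947 isoforms were in the rising order and 533 in the falling order. The falling count depended on the scaling. It was 246 after median-of-ratios scaling, 202 after quantile normalization and 87 after rescaling to TPM, which divides each library by its summed FPKM. That rescaling changes both the size of the values beside the pseudocount and the scale between libraries, whose summed FPKM averaged 2133568 ± 113129, 1960575 ± 30618 and 1865085 ± 169767 at 22, 27 and 32 °C (SD, n = 3 each). With TPM and a pseudocount of 0.5, an alternative chosen after seeing the data, the count was 141.

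The order of the replicates within a temperature was not fixed by the rule. At 32 °C, replicate 1 was the highest of its group in 85 of the 175 chosen isoforms with a single highest library, or 48.6%, against 30.4% of all isoforms tested. Replicate 2 was the highest in 24.6%, against 38.6%, and replicate 3 in 26.9%, against 31.0%. Replicate 1 is the library that correlated more with the 27 °C group, and in the chosen isoforms its median distance from the 27 °C mean was -0.91 on the log2 scale, against -1.09 for replicate 2 and -1.06 for replicate 3. The share of replicate 1 was 42.0% against 22.1% of all tested after rescaling to TPM, 54.0% against 34.6% after median-of-ratios scaling and 60.8% against 38.8% after quantile normalization.

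At 27 °C, replicate 3 was the highest in 44.8% of the chosen isoforms, against 30.2% of all tested, and replicate 2 in 21.6%, against 33.9%. At 22 °C, replicate 2 was the highest in 40.2%, against 32.2%, and replicate 3 in 29.9%, against 40.6%. The order at 22 °C changed with the scaling: after rescaling to TPM replicate 3 was the highest most often, in 43.6%, against 47.7% of all tested, and replicate 2 in 34.4%, against 29.6%. After median-of-ratios scaling replicate 1 led with 39.5%, against 33.6%, followed by replicate 2 with 39.0%, against 32.3%. At 27 °C replicate 3 led under each of these scalings and after quantile normalization, in 43.6 to 48.2% of the chosen isoforms. The chosen isoforms are not independent of each other, and no p is given for these shares. The lower step seen by each 27 °C library alone had medians of -1.01, -1.13 and -1.01 against the 22 °C mean in replicates 1, 2 and 3.

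**Figure D4:**
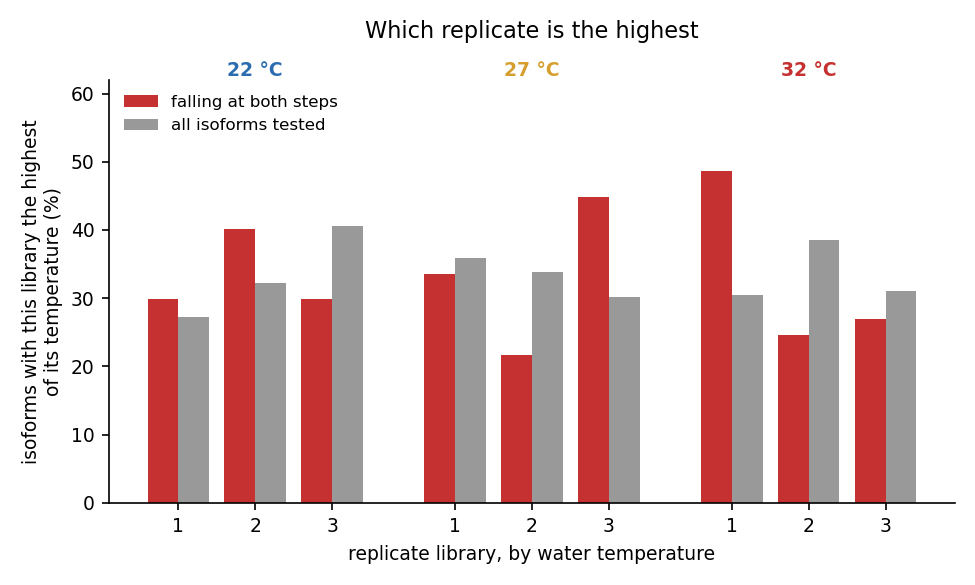
Share of isoforms, on the vertical axis in percent, in which a library is the highest of its temperature, for each of the 9 libraries on the horizontal axis; red bars are the stepwise-falling isoforms and grey bars all isoforms tested, counting isoforms with a single highest library. At 32 °C replicate 1 is the highest in 48.6% of the stepwise-falling isoforms, against 30.4% of all tested.

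The limma test across all isoforms, with Benjamini-Hochberg adjustment at 0.05, called 22 of the 195 lower at 27 than at 22 °C, beside 0.316% of all isoforms tested. For 32 against 27 °C it called 8, beside 0.0475%, and for 32 against 22 °C it called 169 (86.7%), beside 0.789%. The rule used these contrasts, so nothing is read from the shares. Both steps were called in 4 isoforms, isoform_37701 and isoform_89477 among them, and 26 were called in none of the 3 comparisons. Neither count was made over all isoforms tested. At an unadjusted p of 0.05, 171 were lower over the lower step, beside 5.92% of all tested, and 173 over the upper step, beside 4.15%. The median standard error of a step in the chosen isoforms was 0.301 on the log2 scale, close to 0.345 over all isoforms tested. The demand for no overlap favours isoforms with a small spread within a temperature, so nothing is read from this difference.

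These counts moved when the test was run without single libraries. Leaving out replicates 1, 2 and 3 of 22 °C in turn gave 6, 6 and 12 calls for 27 against 22 °C, and leaving out those of 27 °C gave 9, 7 and 11. Leaving out those of 32 °C, which are not part of this comparison, gave 24, 19 and 15. For 32 against 27 °C, leaving out the replicates of 22 °C gave 4, 5 and 5 calls, those of 27 °C gave 3, 4 and 5, and those of 32 °C gave 14, 4 and 2. For 32 against 22 °C, leaving out the replicates of 22 °C gave 77, 80 and 102 calls. Those of 27 °C gave 137, 131 and 135, and those of 32 °C gave 125, 85 and 90. The share of all isoforms called in these fits was not counted. A change in the chosen isoforms thus cannot be told from a change in the test.

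The place of the chosen isoforms in the numbering of the table was a property the rule did not use. Numbers run up to 390021, and the table falls into stretches with different typical levels, here divided at 50000 and 90000, bounds chosen after the values were seen. Of the 195, 43 (22.1%) had numbers up to 50000, 87 (44.6%) numbers from 50001 to 90000, and 65 (33.3%) higher numbers. Of all isoforms tested the shares were 18.8, 22.7 and 58.5%. Of the 200 stepwise-rising isoforms they were 16.0, 30.0 and 54.0%, so the stretch from 50001 to 90000 held more of both sets than of all isoforms tested. The difference between the sets was not tested. The isoforms tested above 90000 were also less abundant, with a median of 1.85 FPKM at 22 °C, against 3.51 and 3.38 FPKM in the lower stretches. Among isoforms of at least 10 FPKM at 22 °C, 54 of 102 chosen isoforms (52.9%) lay between 50001 and 90000, against 36.0% of the 13501 tested. At that level the chosen isoforms were 0.587, 1.11 and 0.516% of those tested in the 3 stretches. The labels do not say what the stretches stand for.

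**Figure D5:**
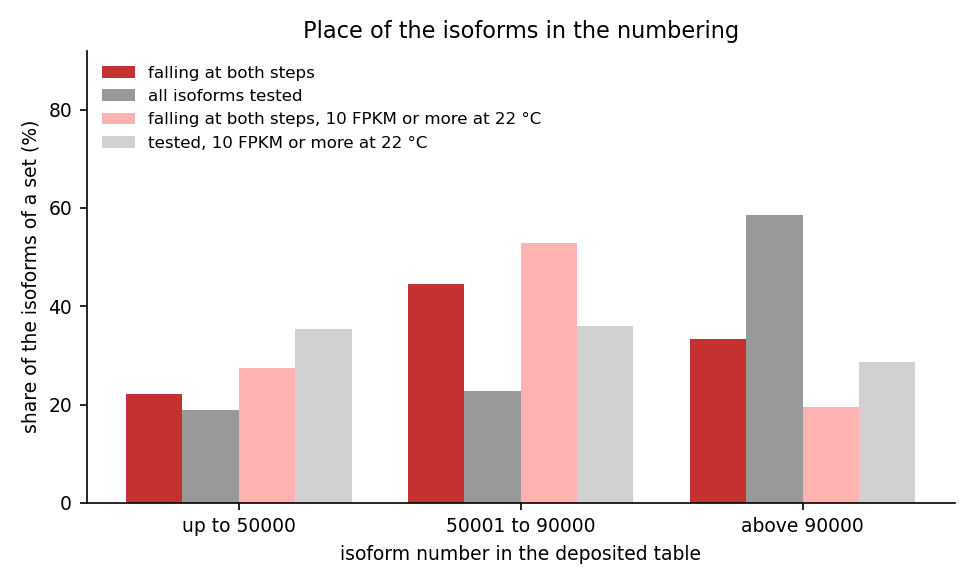
Share of each set of isoforms, on the vertical axis in percent, by isoform number in the deposited table, on the horizontal axis; red and pink bars are the stepwise-falling isoforms, all 195 and the 102 of at least 10 FPKM at 22 °C, and grey bars the isoforms tested, all and at that level. The stretch from 50001 to 90000 held 44.6% of the stepwise-falling isoforms, against 22.7% of all tested (30.0% of the stepwise-rising isoforms, not drawn), and 52.9% against 36.0% at 10 FPKM or more.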

How the data were processed

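Per the labels' protocols, total eyestalk RNA was extracted with Trizol and sequenced with DNBSEQ. The authors deposited FPKM values, named as such in the file header, in 1 table with a column for each library. The submitters' processing notes name the aligner Bowtie2 and the abundance estimator RSEM, which can divide reads between similar isoforms, and give no versions. Settings, transcript set, genome build and filters were not stated in the sources used here. Columns were matched to samples by library name and 0 were unused. No 2 libraries held identical values.

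The rule was applied to log2(FPKM + 1) of isoforms with at least 1 FPKM in 3 of 9 libraries. The members, comparisons and alternatives were chosen with earlier results of these data known. Calls came from a two-sided limma test (limma 3.58.1, R 4.3.3) fitted to the 9 libraries together, with a variance trend on abundance and Benjamini-Hochberg adjustment over all 101114 isoforms tested. Changes on this scale understate those of isoforms near 1 FPKM. The 2 isoforms with the lowest summed step are given by identifier. Others are described by their place: the 5 highest means at 22 °C, the middle of the ranking, the most even and uneven steps, and those nearest the limits. The marker lists could not be filled, since no isoform carries a gene name.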

Additional observations from a re-analysis of the deposited data

How the results depend on the processing

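The number of isoforms meeting the rule was 195 as reported, 310 and 317 with pseudocounts of 0.1 and 0.01, 129 with a filter of 5 FPKM, 87 after rescaling to TPM, 340 and 58 with limits of 0.4 and 1, and 220 to 315 with 1 library left out, when 167 to 185 of the 195 were found again. With TPM and a pseudocount of 0.5, an alternative chosen after seeing the data, it was 141. Leaving out a library eases the demand for no overlap, so the counts with 1 library left out do not measure stability. The median lower and upper steps were -1.22 and -1.87 with a pseudocount of 0.1, -1.25 and -2.05 with 0.01 and -0.79 and -0.74 with TPM. Median-of-ratios scaling gave -1.14 for the lower step, and TPM with a pseudocount of 0.5 gave -0.88. With 1 library left out the medians ran from -1.05 to -0.99 and from -1.11 to -0.96. The upper step was the larger fall in 95 isoforms as reported, in 147 and 157 with pseudocounts of 0.1 and 0.01, in 12 in FPKM, and in 85 to 108 with 1 library left out. With the smaller pseudocounts, the upper step of the 72 isoforms listed at 0 in at least 1 library at 32 °C depends on the pseudocount.

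The limma counts were 22, 8 and 169 for 27 against 22, 32 against 27 and 32 against 22 °C. With no filter they were 13, 5 and 110, and with TPM 22, 8 and 156. Quantile normalization gave 22, 7 and 168, and median-of-ratios scaling gave 33, 7 and 183. A pseudocount of 0.1 gave 9, 11 and 141, and one of 0.01 gave 4, 14 and 115. A filter of 5 FPKM, which kept 129 of the isoforms, gave 14, 6 and 121. Fitting only the groups compared gave counts of 17, 2 and 91. With 1 library left out they ran from 6 to 24, 2 to 14 and 77 to 137, with fewer samples in each fit. With the replicate number as a block they were 4, 2 and 84. The labels do not link equal replicate numbers to a common animal or tank, and the deviations of same-numbered libraries correlated at -0.019 to 0.0525. Of the 9 libraries, 3 correlated best with their own number in both other groups, and these were replicate 1 of each temperature. The share of all isoforms called was not counted under these alternatives, and the causes of these changes were not tested. The unknown read depth limits the values near 0 at 32 °C.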
